A study of Mus musculus with 6 samples.

Results

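The prostaglandin and leukotriene pathway was followed through 10 genes: Pla2g4a, Ptgs1, Ptgs2, Ptges, Ptges2, Ptges3, Ptger4, Alox5, Alox5ap and Lta4h. They were chosen by gene symbol as genes of arachidonic acid metabolism, with earlier results of these data known. Each matched a single row of the 49315 rows in the count table. All 10 had enough reads for the test described here. RNA-seq was performed on RAW264.7 cells, a transformed macrophage-like line from mouse, of wild-type (WT) genotype. The cells received 4 μg/mL of SKI-II, a compound that inhibits sphingosine kinases, or its solvent DMSO, for 24 h. There were 3 libraries per group, all from this single cell line, and the labels do not say whether they came from separate cultures. The study's methods state that the cells were treated as for its qPCR assay, which was run with biological replicates, without saying so of the libraries. P-values thus measure the spread between these libraries, part of which may be technical. The comparison asks which transcripts of the pathway differed after SKI-II treatment of macrophages.

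Prostaglandins and leukotrienes are short-lived lipid signals made from arachidonic acid, a fatty acid stored in membrane phospholipids. Cytosolic phospholipase A2 releases the acid. Cyclooxygenases then turn it into prostaglandin H2, from which separate synthases make prostaglandin E2, prostacyclin, thromboxane and other prostanoids. In the other branch, 5-lipoxygenase and its partner protein FLAP make leukotriene A4, which becomes leukotriene B4 or the cysteinyl leukotrienes. Macrophages are a known source of both kinds of lipid, and the inducible cyclooxygenase COX-2, encoded by Ptgs2, is widely used as a sign of inflammatory activation. Counts of mRNA say nothing on the lipids themselves, which were not measured in these libraries.

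The libraries held between 12495957 and 20050677 counts, and the 10 genes together held 0.0866% to 0.0943% of all counts in the DMSO libraries and 0.153% to 0.189% after SKI-II. Of 10 macrophage markers, 8 had at least 10 counts in every library, and Cd163 was at 0 in all of them. Their summed level was 8790 to 11900 CPM (counts relative to the library's total) in DMSO and 5470 to 7740 in SKI-II, and 3050 to 3410 and 3550 to 3990 without Lyz2. The markers went both ways: Fcgr1 and Cd14 rose by 2.17 and 1.41 on the log2 scale (adjusted p of 1.56e-05 and 0.000273, edgeR), Mrc1, Lyz2, Itgam and Adgre1 had log2 fold changes of -1.61, -1.26, -0.93 and -0.92 (adjusted p of 0.0209, 0.0172, 0.00781 and 0.00451), and Csf1r, Cd68 and Spi1 were not called. No T cell, B cell, mast cell, fibroblast or epithelial marker exceeded 18 counts in any library, and Fcer1a, Mcpt4 and Tpsb2 of mast cells and Ly6g of neutrophils were at 0 throughout. Among the neutrophil markers S100a8 reached 117 counts, and the range of the summed list was 2.28 to 6.10 CPM in DMSO and 1.90 to 6.99 in SKI-II. The part of these markers in the results was not tested. In bulk RNA, fewer cells that express a gene and less RNA of it per cell cannot be told apart.

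With SKI-II, 4 of the 10 transcripts rose and 3 fell by edgeR's quasi-likelihood test (adjusted p under 0.05). The 4 that rose were Ptgs2, Ptgs1, Pla2g4a and Alox5ap, and the 3 that fell were Ptger4, Ptges3 and Lta4h. Of all 12274 tested genes, 18.4% were higher and 19.7% lower by the same rule, 38.0% in all, so that a call by itself was common in this comparison. Few genes changed as much as Ptgs2, whose log2 fold change was the 42nd from the top among the 12274 genes and whose p-value was the 8th smallest. The median log2 fold change was 0.36 over the 10 transcripts and 0.004 over all tested genes. The groups did not overlap for 7 of the 10 transcripts (3 with all SKI-II libraries above and 4 with all below), and for 50.3% of all tested genes (24.8% above and 25.5% below). Values per library are normalized counts, that is, counts scaled to a common library size.

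**Figure D1:**
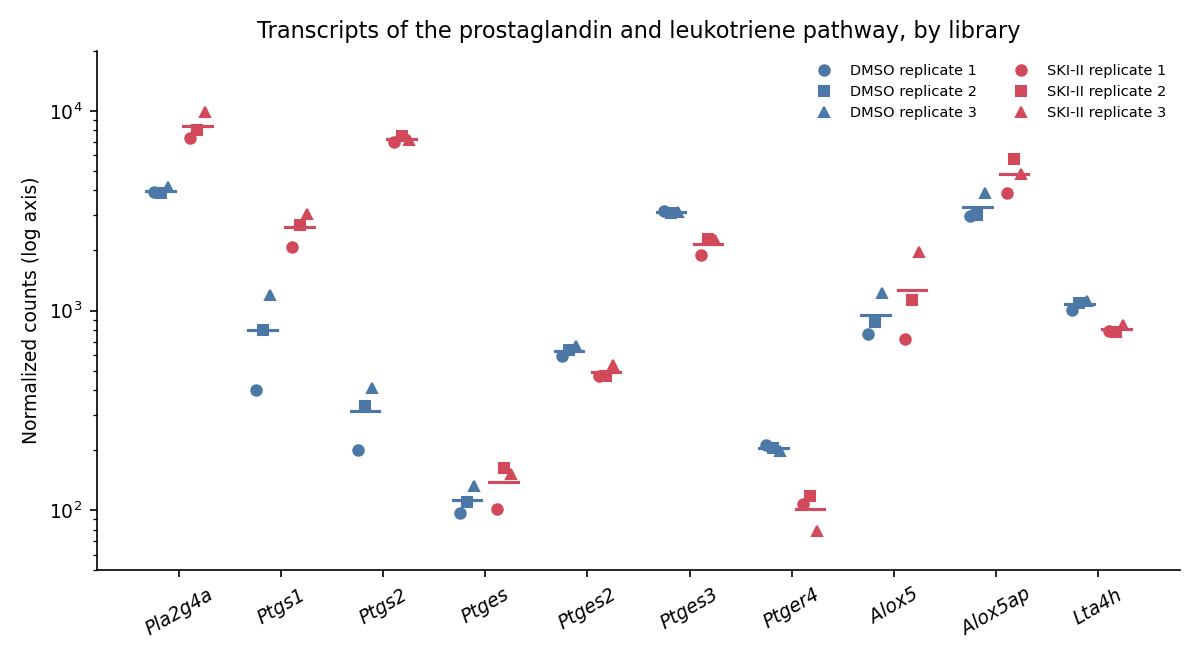
Normalized counts (log axis) of the 10 transcripts in each of the 3 DMSO and 3 SKI-II libraries, with marker shape for the replicate number and a line at the group mean. The SKI-II points of Ptgs2 lie between 7016 and 7451, all far above the DMSO points, while those of Ptger4 lie below every DMSO point.

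Release of arachidonic acid starts with cytosolic phospholipase A2, encoded by Pla2g4a (ENSMUSG00000056220, chromosome 1, 149829618 to 149961290 in GRCm38). Its normalized counts were 3915, 3890.0 and 4160.0 in DMSO 1, 2 and 3, against 7329, 8059 and 9927 in SKI-II 1, 2 and 3. The groups did not overlap, and the lowest SKI-II library stood well above the highest DMSO library. The means were 3988 ± 149 (SD, n = 3) and 8439 ± 1340.0 (SD, n = 3), for a fitted log2 fold change of 1.08 with its standard error of 0.14 (adjusted p = 0.000355, edgeR). The SKI-II mean was 2.12 times the DMSO mean of a transcript that was already abundant without SKI-II.

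The cyclooxygenases form prostaglandin H2, the precursor of all prostanoids. COX-2, the inducible enzyme, is encoded by Ptgs2 (ENSMUSG00000032487, chromosome 1, 150100031 to 150108227). Its normalized counts were 201, 334 and 409.9 in DMSO, against 7016, 7451 and 7167 with SKI-II, in the order of the replicate numbers. The 3 SKI-II libraries were close together, with a coefficient of variation of 3.07%, whereas the DMSO libraries varied by 33.6%. The means were 315 ± 106 (SD, n = 3) and 7211 ± 221 (SD, n = 3), for a fitted log2 fold change of 4.52 with its standard error of 0.21 (95% interval 4.04 to 4.99, adjusted p = 6.90e-06, edgeR). This is a 22.9-fold higher level. With any single library left out, the log2 fold change stayed between 4.26 and 4.76 and the call was kept.

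COX-1, encoded by Ptgs1 (ENSMUSG00000047250, chromosome 2, 36230426 to 36252272), is usually described as the constitutive enzyme. In these cells its transcript rose as well. Its normalized counts were 399, 799 and 1199 in DMSO, against 2076, 2694 and 3051 with SKI-II. The DMSO libraries spread over a wide range for this gene, with a coefficient of variation of 50.1% and DMSO 1 the lowest, yet none of them reached the lowest SKI-II library. The means were 799 ± 400.0 (SD, n = 3) and 2607 ± 494 (SD, n = 3), for a fitted log2 fold change of 1.71 with its standard error of 0.32 (95% interval 1.00 to 2.41, adjusted p = 0.00271, edgeR). With any single library left out it was still called, at 1.37 (without DMSO 1) to 2.13 (without DMSO 3). An unclassified transcript on the other strand, Gm43621, overlaps 3.81% of its exon bases and had 1 to 13 counts per library.

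Per kilobase of exon, so that the pair can be set side by side, Ptgs2 made up 29.9%, 26.2% and 22.5% of Ptgs1 plus Ptgs2 in DMSO 1, 2 and 3, and 74.1%, 70.1% and 66.6% in SKI-II 1, 2 and 3. The mean share was 26.2% ± 3.73 in DMSO and 70.3% ± 3.78 in SKI-II (SD, n = 3 each), a difference of 44.1 percentage points. The groups did not overlap. The exact permutation test over the 6 libraries, two-sided, gave p = 0.1, the smallest value that 3 against 3 libraries allow. The summed level of both transcripts was 9.14 to 24.8 RPKM (CPM per kilobase of exon) in DMSO and 129 to 147 in SKI-II. In DMSO the more abundant cyclooxygenase transcript was thus Ptgs1 in every library, and in SKI-II it was Ptgs2 in every library.

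**Figure D2:**
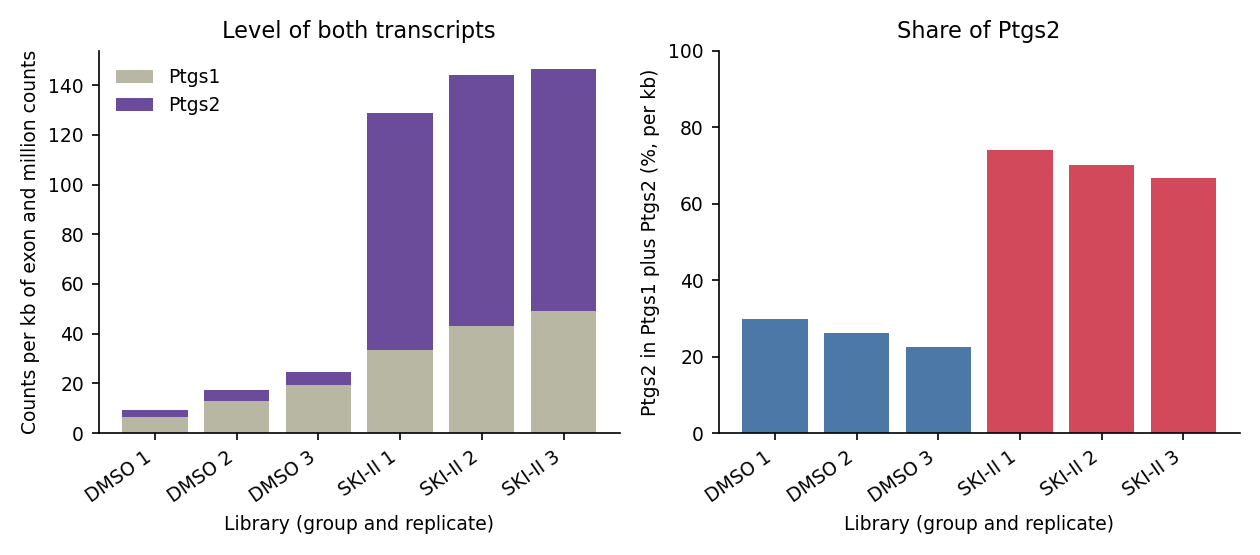
Left, level of Ptgs1 and Ptgs2 in RPKM, stacked for each of the 6 libraries. Right, the share of Ptgs2 in that sum in percent, with DMSO in blue and SKI-II in red. The share lies between 22.5% and 29.9% in the DMSO libraries and between 66.6% and 74.1% in the SKI-II libraries.

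The sequence around the start site is shown for both cyclooxygenase genes because both transcripts rose and Ptgs2 led the 10 genes. It runs from 100 bases before the annotated start to 30 bases after it, and was taken from RefSeq on GRCm38.p6 (Ptgs2 at chr1:150099931-150100060 and Ptgs1 at chr2:36230326-36230455, both on the plus strand). Capitals mark the short motifs found among those searched.
Ptgs2: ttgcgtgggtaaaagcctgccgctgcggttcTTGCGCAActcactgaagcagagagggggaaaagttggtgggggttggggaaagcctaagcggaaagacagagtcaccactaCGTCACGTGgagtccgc
Ptgs1: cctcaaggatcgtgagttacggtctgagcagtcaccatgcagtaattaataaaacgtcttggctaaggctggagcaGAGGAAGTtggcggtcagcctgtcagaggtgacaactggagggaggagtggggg
In Ptgs2 the capitals mark a C/EBP palindrome (TTGCGCAA) that begins at base -69, and, from base 14 after the start, a short cAMP response element (TGACG, on the minus strand) that shares bases with an E-box (CACGTG) beginning at base 17. In Ptgs1 they mark a PU.1 motif (GAGGAAGT) at base -24. Windows of 300 bases around the start were at hand for 9 of the 10 genes. They covered bases 150099781 to 150100080 for Ptgs2 and 36230176 to 36230475 for Ptgs1. Sites outside the windows, such as those farther upstream, were not searched. Both strands were also searched for the full cAMP response element (TGACGTCA), the C/EBP-ATF composite (TGATGNAAT), AP-1 (TGANTCA), the antioxidant response element (TGACNNNGC) and a 10-letter form of the NF-kB motif, and none of these patterns was found in the windows of Ptgs1 and Ptgs2. Of 32851 windows of the same length, 0.183% held the C/EBP palindrome, 20.8% the short element, 7.15% the E-box and 3.20% the PU.1 motif. For the others the share was 1.79% for the full cAMP response element, 0.965% for the composite, 7.81% for AP-1, 12.4% for the antioxidant response element and 4.79% for NF-kB. Among the remaining windows, Ptges2 held an E-box, and Ptges3 held a short cAMP response element and an antioxidant response element that share bases. These matches describe letters and not binding, and no binding was measured here.

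A pair of noncoding transcripts is annotated near Ptgs2 on the minus strand. Ptgs2os, which begins just upstream of the Ptgs2 start and runs the other way, had 1, 2 and 0 counts in DMSO, against 6, 6 and 3 with SKI-II, too few for the test. Ptgs2os2, farther along chromosome 1, had 58, 27 and 32 counts in DMSO, against 70, 109 and 115 with SKI-II, for a log2 fold change of 1.17 (adjusted p = 0.0120, edgeR). Both were looked up by name after the values of Ptgs2 were known.

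Of the 3 transcripts for synthases that turn prostaglandin H2 into prostaglandin E2, none was called higher and 1 was called lower, where 18.4% and 19.7% of all tested genes were. Ptges encodes the inducible microsomal enzyme mPGES-1 (ENSMUSG00000050737, chromosome 2, 30889471 to 30929863). In normalized counts it had 97.1, 109.9 and 132 in DMSO, against 102, 162 and 152 with SKI-II. The groups overlapped and the level was low in both. The log2 fold change was 0.30 (standard error 0.24, 95% interval -0.24 to 0.84, adjusted p = 0.365, edgeR), an interval that holds both a small fall and a rise. Ptgs2 had 1.78 to 2.67 times the level of Ptges per kilobase in the DMSO libraries and 39.4 to 59.1 times its level in the SKI-II libraries.

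Ptges2 encodes the membrane-associated mPGES-2 (ENSMUSG00000026820, chromosome 2, 32395896 to 32405772). Normalized counts stood at 593, 636 and 664 in DMSO, against 468, 472 and 535 with SKI-II, and every SKI-II library lay below every DMSO library. The log2 fold change was -0.36 (standard error 0.13, adjusted p = 0.0524, edgeR), just outside the threshold. It came inside it without SKI-II 3 (adjusted p = 0.0480) and with scaling by library size alone (adjusted p = 0.0459).

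Ptges3 encodes p23, a co-chaperone of Hsp90 also described as the cytosolic prostaglandin E synthase (ENSMUSG00000071072, chromosome 10, 128058954 to 128077272). Its normalized counts were 3138, 3087 and 3099 in DMSO, an almost constant level, and 1892, 2289 and 2268 in SKI-II. All SKI-II libraries lay below all DMSO libraries. The means were 3108 ± 26.9 and 2150.0 ± 223 (SD, n = 3 each), for a fitted log2 fold change of -0.53 with its standard error of 0.12 (adjusted p = 0.00601, edgeR). Reads of this gene could be shared with its processed pseudogene Ptges3-ps, which held 314, 230 and 318 counts in DMSO, against 142, 246 and 296 with SKI-II (log2 fold change -0.52, adjusted p = 0.0562, edgeR).

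Ptger4 encodes EP4, a receptor for prostaglandin E2 that raises cAMP (ENSMUSG00000039942, chromosome 15, 5206661 to 5244187). Its level in normalized counts was 212, 205 and 199 in DMSO, against 107, 117 and 79.0 with SKI-II. The groups did not overlap, and SKI-II 3 was the lowest library. The means were 205 ± 6.37 and 101 ± 19.9 (SD, n = 3 each), for a fitted log2 fold change of -1.02 with its standard error of 0.21 (adjusted p = 0.00388, edgeR), or 0.493 of the DMSO level. Ptger4 was the only one of the 10 transcripts below -1 on that scale, where 7.44% of all tested genes were called lower, and Ptgs2, Ptgs1 and Pla2g4a were the 3 above 1, where 8.28% were called higher. Exons of Ptger4 overlap over 15.3% of their length with the pseudogene Gm15937 on the other strand, which had at most 1 count in any library, and over 1.23% with Ttc33, also on the other strand, which had 513 to 874 counts per library, more than the 96 to 218 of Ptger4. How many reads the pair shared was not tested.

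The leukotriene branch was followed through Alox5ap, Alox5 and Lta4h. Alox5ap encodes FLAP, the membrane protein that presents arachidonic acid to 5-lipoxygenase (ENSMUSG00000060063, chromosome 5, 149264767 to 149288153). Its normalized counts were 2976, 3020.0 and 3870.0 in DMSO, against 3861, 5739 and 4841 with SKI-II. The lowest SKI-II library and the highest DMSO library were at almost the same value, so the groups just overlapped. The means were 3289 ± 504 and 4814 ± 939 (SD, n = 3 each), for a fitted log2 fold change of 0.55 with its standard error of 0.17 (adjusted p = 0.0280, edgeR). The call was lost without DMSO 1, DMSO 2, SKI-II 2 or SKI-II 3, with adjusted p of 0.0763, 0.122, 0.121 and 0.0540. An antisense gene, Gm19719, overlaps 13.3% of its exon bases and had 6 to 20 counts per library.

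Alox5 encodes 5-lipoxygenase, the enzyme that starts leukotriene synthesis (ENSMUSG00000025701, chromosome 6, 116410077 to 116461178). In normalized counts Alox5 had 763, 873 and 1226 in DMSO, against 724, 1126 and 1962 with SKI-II. The SKI-II libraries ran from below every DMSO library to above every DMSO library, with a coefficient of variation of 49.7%. The log2 fold change was 0.42 (standard error 0.31, 95% interval -0.29 to 1.12, adjusted p = 0.330, edgeR), and it was -0.05 without SKI-II 3. With no filter on low counts Alox5 was called (adjusted p = 0.0397), with the same fold change. That fit moved adjusted p-values of other genes widely at unchanged fold changes. It gave 5.33e-25 against 0.00271 for Ptgs1 and 0.141 against 0.0524 for Ptges2 (edgeR).

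Lta4h encodes leukotriene A4 hydrolase, which makes leukotriene B4 (ENSMUSG00000015889, chromosome 10, 93453411 to 93484875). Normalized counts of Lta4h were 1011, 1093 and 1118 in DMSO, against 794, 781 and 844 with SKI-II. Each group was tight, and the SKI-II libraries all lay below the DMSO libraries. The means were 1074 ± 55.9 and 806 ± 33.4 (SD, n = 3 each), for a fitted log2 fold change of -0.41 with its standard error of 0.12 (adjusted p = 0.0185, edgeR). The call was lost without DMSO 2 (adjusted p = 0.0774) or SKI-II 2 (adjusted p = 0.0746).

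**Figure D3:**
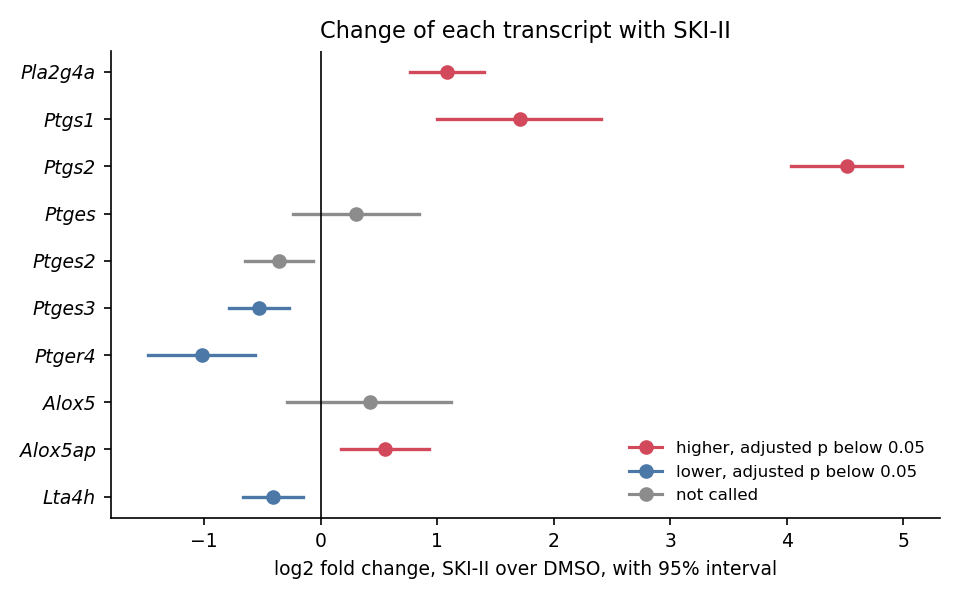
Fitted log2 fold change of the 10 transcripts, SKI-II over DMSO, with its 95% interval, in red where higher, blue where lower and grey where not called at an adjusted p below 0.05. Ptgs2 stands at 4.52, Ptgs1 at 1.71 and Pla2g4a at 1.08, and the other 7 lie between -1.02 and 0.55.

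Levels of different genes were compared per kilobase of exon, as RPKM. In DMSO the order from the top was Alox5ap at 144, Ptges3 at 87.4, Pla2g4a at 38.9, Alox5 at 14.5, Ptgs1 at 12.8, Lta4h at 11.0, Ptges2 at 7.77, Ptgs2 at 4.29, Ptger4 at 1.92 and Ptges at 1.79. The ranges over the 3 libraries overlapped between neighbours for Alox5 and Ptgs1, for Ptgs1 and Lta4h, and for Ptger4 and Ptges. In SKI-II the order was Alox5ap at 211, Ptgs2 at 98.1, Pla2g4a at 82.3, Ptges3 at 60.4, Ptgs1 at 41.8, Alox5 at 19.3, Lta4h at 8.24, Ptges2 at 6.06, Ptges at 2.20 and Ptger4 at 0.950. There the ranges of neighbours overlapped only for Ptgs2 and Pla2g4a. Ptgs2 thus moved from the 8th to the 2nd place among the 10 transcripts. All exons annotated for a gene were counted into its length, which lowers the level of genes with many rarely used exons.

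Within the DMSO group, DMSO 3 held the highest value of 8 of the 10 transcripts and DMSO 1 the lowest of 7. Over all tested genes those shares were 42.0% and 38.9%. Within the SKI-II group, SKI-II 1 held the lowest value of 8 of the 10, where it was the lowest for 35.1% of all tested genes. For Alox5 per kilobase, set against Lta4h of the same library, the ratio was 1.12, 1.19 and 1.63 in DMSO, against 1.35, 2.14 and 3.45 with SKI-II. The ranges of this ratio overlapped between the groups, and SKI-II 3 was the highest.

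A list of 78 genes of arachidonate metabolism, the 10 included, was written from general knowledge by role, with earlier results of these data known. Of these, 46 were tested, and 16 rose and 10 fell (adjusted p under 0.05), with a median log2 fold change of 0.20. Over all tested genes 18.4% were higher and 19.7% lower, and the counts by role are to be read against these shares. Without the 10, 36 of 68 were tested, with 12 higher, 7 lower and a median of 0.18. Alox15 and Ggt1 were among the 12, and with at least 10 counts in every library 10 were higher and 7 lower. Of the 78 genes, 14 had no count in any library.

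Of the 25 genes for arachidonate release and re-acylation, 16 were tested, 5 were higher and 3 lower. Apart from Pla2g4a, the largest rises were those of secreted phospholipases A2. Pla2g2e went from 130 ± 12.7 to 445 ± 149 normalized counts (SD, n = 3 each; log2 fold change 1.77, adjusted p = 0.000408, edgeR), Pla2g5 from 395 ± 77.9 to 1130 ± 62.8 (1.51, adjusted p = 9.18e-05) and Pla2g12a from 761 ± 106 to 1397 ± 166 (0.88, adjusted p = 0.00146). The largest falls were -1.39 for Daglb, a diacylglycerol lipase that makes an endocannabinoid precursor of arachidonic acid, -0.79 for the lysosomal phospholipase Pla2g15 and -0.65 for Anxa1, which encodes annexin A1, a protein known to restrain phospholipase A2 (adjusted p of 0.000110, 0.00831 and 0.0106, edgeR). Dagla, the other diacylglycerol lipase, was called higher (log2 fold change 0.60, adjusted p = 0.0102, edgeR), and was named after its value was seen.

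Of the 12 genes for prostanoid synthesis, 9 were tested, 3 were higher and 1 lower. Besides the cyclooxygenases, the gene that rose was Akr1b3, an aldo-keto reductase known both as the polyol pathway enzyme and as a prostaglandin F synthase. Normalized counts of Akr1b3 were 4103, 5825 and 7383 in DMSO, against 11830, 21050 and 18010 with SKI-II, with no overlap (log2 fold change 1.56, adjusted p = 0.00121, edgeR). Other aldo-keto reductase genes are similar to it in sequence, and the sharing of reads among them could not be seen. The terminal synthases of the other prostanoids were not called. Hpgds for prostaglandin D2 had 929 ± 282 and 1057 ± 252 normalized counts (SD, n = 3 each; adjusted p = 0.574, edgeR), Tbxas1 for thromboxane A2 had 68.7 ± 20.6 and 45.4 ± 0.559 (adjusted p = 0.133), and Cbr1, a carbonyl reductase, had 453 ± 11.9 and 409.7 ± 25.1 (adjusted p = 0.430). Ptgis, the prostacyclin synthase, had 1, 2 and 2 counts in DMSO, against 6, 5 and 14 with SKI-II, too few for the test, and Ptgds and Fam213b had at most 4 counts in a library.

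Of the 9 prostanoid receptors only 3 were tested. Ptgir, which encodes the prostacyclin receptor, rose from 905, 1137 and 1091 normalized counts to 2255, 2737 and 2812, for a fitted log2 fold change of 1.32 with its standard error of 0.14 (adjusted p = 9.55e-05, edgeR), while Ptger4 fell. Both receptors act through cAMP. Ptger1 had 64.4 ± 9.94 and 75.4 ± 25.1 normalized counts (SD, n = 3 each; adjusted p = 0.598). Ptger2 had 2 to 5 counts per library in DMSO and 2, 6 and 17 in SKI-II, Ptgdr2 and Ptger3 had at most 3 counts in a library, and Ptgdr, Ptgfr and Tbxa2r were at 0 in all libraries. Of the 6 genes for transport and inactivation, 4 were tested. Ptgr1, a prostaglandin reductase also known to inactivate leukotriene B4, rose by 1.27 on the log2 scale and Abcc4, an exporter of prostaglandins, by 0.94 (adjusted p of 0.00224 and 0.0102, edgeR), while Zadh2, another prostaglandin reductase, fell by 0.50 (adjusted p = 0.0207). The call of Abcc4 was lost without SKI-II 1 (adjusted p = 0.0502), and that of Zadh2 without DMSO 1, DMSO 2, SKI-II 1 or SKI-II 2 (up to 0.0734). Hpgd, the main enzyme of prostaglandin breakdown, and Slco2a1, the prostaglandin uptake carrier, were at 0 in all libraries.

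Of the 12 genes for leukotriene synthesis and breakdown, 9 were tested, 4 were higher and 2 lower. These counts depended on single libraries: 2 were higher without DMSO 1, DMSO 2, SKI-II 2 or SKI-II 3, and 1 was lower without DMSO 2 or SKI-II 2. The largest rise was that of Dpep2, a dipeptidase known to convert leukotriene D4 to E4, from 306 ± 37.2 to 1180.0 ± 236 normalized counts (SD, n = 3 each; log2 fold change 1.95, adjusted p = 4.10e-05, edgeR). Abcc1, an exporter of leukotriene C4, rose by 0.76 (adjusted p = 0.00441). Ggt1, a gamma-glutamyltransferase, had 1, 3 and 8 counts in DMSO, against 12, 13 and 22 with SKI-II, and its call (adjusted p = 0.0396) was lost with DESeq2 (0.0897) and without 5 of the 6 libraries (up to 0.118), DMSO 3 being the exception. Ggt1, too, passed the filter only through the SKI-II group, and without it 3 genes of this role were higher. Of the enzymes that can make leukotriene C4, Mgst3 fell by 1.01 on the log2 scale (adjusted p = 0.00168, edgeR), Ltc4s was at 0.51 (adjusted p = 0.0978) and Mgst2 at -0.26 (adjusted p = 0.437). Of the leukotriene receptors, Cysltr1 fell from 213, 113 and 153 normalized counts to 61.5, 101 and 75.8 (log2 fold change -1.0, adjusted p = 0.0208, edgeR), a call lost without DMSO 1 (0.0662) or SKI-II 1 (0.0782). Ltb4r1 had 3, 0 and 13 counts against 0, 14 and 15 (adjusted p = 0.641), Ltb4r2 had at most 1 count and Cysltr2 had none. Among other lipoxygenases and epoxide enzymes 3 of 10 were tested. Alox15, which encodes the lipoxygenase known from alternatively activated macrophages, had 3, 4 and 5 counts in DMSO, against 16, 41 and 47 with SKI-II. It was called higher (adjusted p = 0.00152, edgeR) but passed the filter on low counts only through the SKI-II group, so that a rise was built into its being tested. Cyp2s1, a cytochrome P450, fell from 129, 67 and 32 counts to 13, 27 and 11 (log2 fold change -2.30, adjusted p = 0.00829, edgeR).

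**Figure D4:**
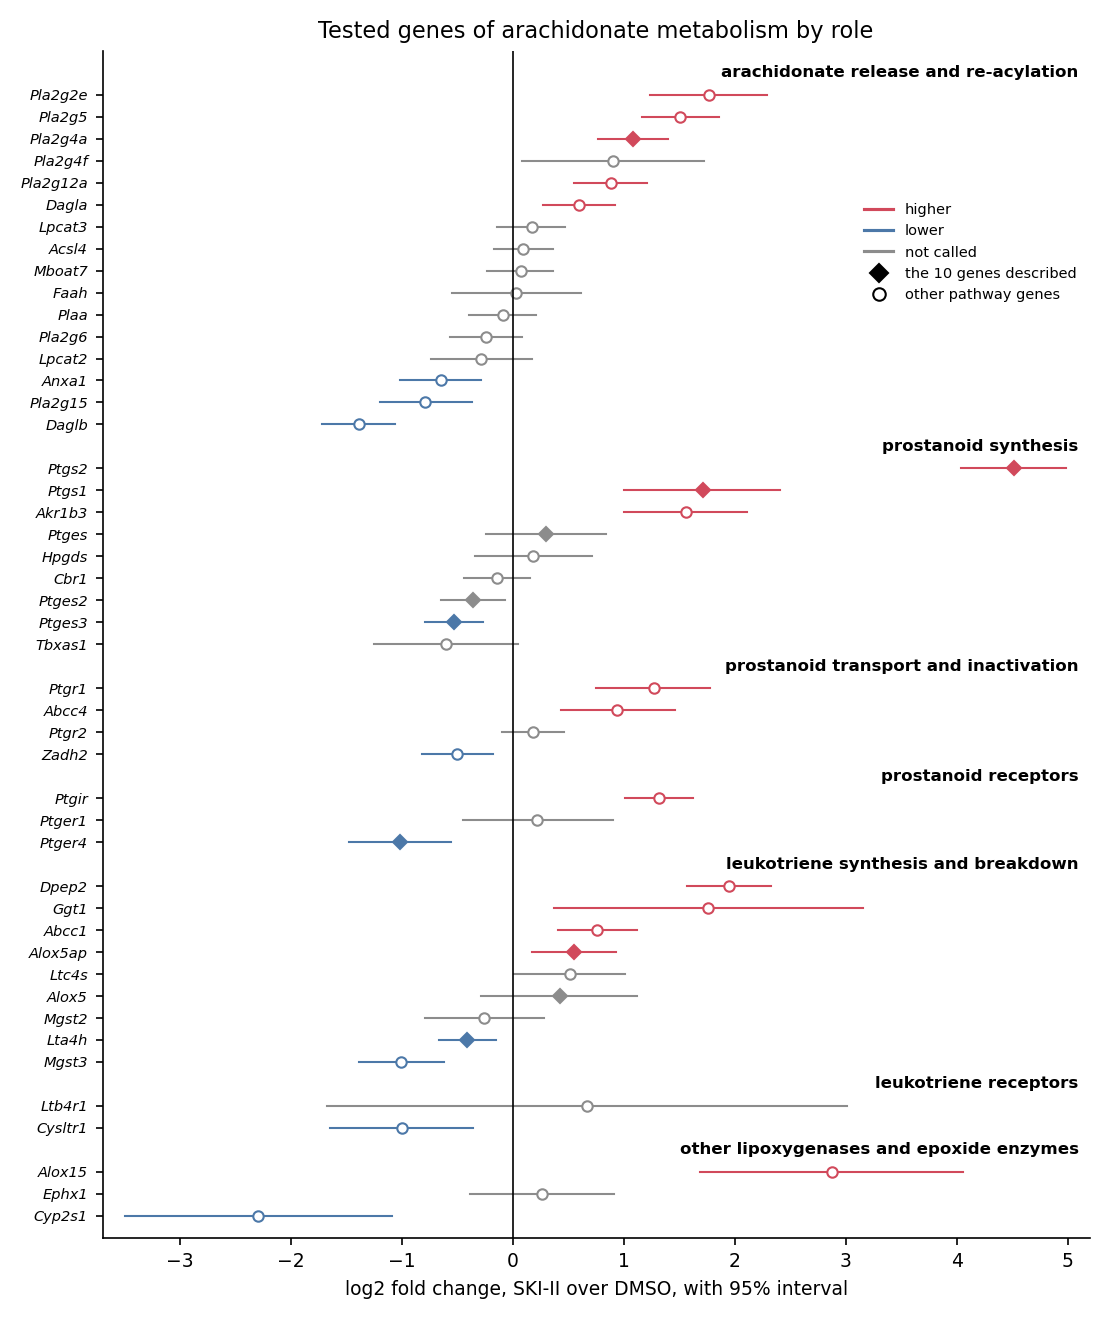
Fitted log2 fold changes, SKI-II over DMSO, with 95% intervals for the 46 tested genes of the list, grouped by role and sorted within a role, with diamonds for the 10 genes and open circles for the others. Ptgs2 is the highest of all at 4.52 and Cyp2s1 the lowest at -2.30, and each of the first 5 roles holds both higher (red) and lower (blue) genes.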

How the data were processed

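RNA from RAW264.7 cells was sequenced in 3 DMSO and 3 SKI-II libraries after poly(A) selection with the NEBNext Ultra II RNA kit. The authors trimmed reads with Trimmomatic 0.36, mapped them with STAR 2.5.2b and deposited raw counts of reads per Ensembl gene. The submitters' processing notes also name featureCounts and Subread 1.5.2. The genome build, annotation release and strand setting were not stated, so genes that overlap are uncertain. Names, positions and exon lengths come from GENCODE M21 (GRCm38), which named 49056 of 49315 rows.

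Counts were tested with edgeR 4.0.16 in R 4.3.3 by the quasi-likelihood F test, with TMM scaling, the default filter on expression by group (minimum count 10, total 15) and Benjamini-Hochberg adjustment over all 12274 genes kept, which held at least 99.9% of each library. Normalized counts are on the scale of the mean library, 16042438. RPKM values use the same TMM-scaled library sizes and the union of a gene's exons. Standard errors come from the fitted weights, and 95% intervals from the moderated degrees of freedom. Two-sided exact permutation was used for the share of Ptgs2. No pair of libraries in a group agreed within sampling noise (chi-square per degree of freedom 15.4 to 58.1). The programs were tested on simulated data. The 10 genes and the lists were chosen with earlier results of these data known. Beyond the 10, the text names up to 3 called genes with the largest rise and 3 with the largest fall per role and among regulators of Ptgs2, Atf4, and the synthases and receptors. Alternatives were DESeq2 1.42.0, limma-voom (limma 3.58.1), RLE scaling, library size alone, no filter, a minimum of 10 counts per library, leaving out 1 library at a time, a replicate block, a prior count of 2, and a log2 fold change beyond 1. Figures were drawn with matplotlib 3.10.9.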

Additional observations from a re-analysis of the deposited data

How the results depend on the processing

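For the 10 transcripts, 129 of 140 alternative fits kept the direction and the call. Of the others 6 lost a call (4 of Alox5ap, 2 of Lta4h), 4 gained one (3 of Ptges2 and 1 of Alox5) and 1 turned the direction of Alox5. Ptgs2, Ptgs1, Pla2g4a, Ptges3 and Ptger4 kept their calls and Ptges stayed uncalled in all 14 alternatives run for each. With a log2 fold change beyond 1 required, the counts were 1016 higher and 913 lower over all genes, 3 and 1 of the 10, and 11 and 5 of the 78. The alternatives other than this threshold moved the counts over all genes, the 10 and the 78 by no more than 1.5 times. Counts within a role were less stable, in fits chosen after seeing the data: from 2 to 5 genes of leukotriene synthesis and breakdown were higher and 1 to 2 lower, 1 to 2 of prostanoid synthesis were lower, 1 to 2 of transport and inactivation were higher and 0 to 1 lower, 0 to 1 of the leukotriene receptors were lower, and 0 to 1 of the other lipoxygenases and epoxide enzymes were higher (0 under the strictest filter, a minimum of 10 counts). With a library left out, 1507 to 2227 genes were higher and 1766 to 2387 lower, against 2255 and 2413 with all 6. The log2 fold change ranged from -0.05 to 0.69 for Alox5, and, among uncalled genes, from -0.02 to 0.41 for Hpgds and from -0.04 to 0.45 for Ptger1. The cause was not tested. Replicate numbers were not shown to pair the libraries, since deviations of same-numbered libraries correlated at 0.25, 0.01 and 0.46 over genes for numbers 1, 2 and 3, and DMSO 1 correlated more with SKI-II 2 (0.30). DMSO 1 was at -0.46 with SKI-II 3, and DMSO 3 at -0.26 with SKI-II 1 and -0.28 with SKI-II 2. DMSO 2 was at 0.04 with SKI-II 1 and -0.05 with SKI-II 3. The main fit held no term for such shared deviations, and their source was not tested. With the replicate block 2765 genes were higher and 2819 lower, and of the 10 transcripts 4 and 4, Ptges2 being the addition (adjusted p = 0.0344, edgeR). The number of libraries, 3 per group, limits the exact test of a single value, and genes with a few counts per library were below what this depth can compare.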

Other observations

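Factors and RNA-binding proteins known to act on Ptgs2 were listed as 23 genes from general knowledge, with earlier results of these data known. All of the 23 were tested. At an adjusted p below 0.05, 11 were higher and 6 lower with SKI-II, with a median log2 fold change of 0.30, where 18.4% of all tested genes were higher and 19.7% lower. Without SKI-II 2, 3 of the 23 were lower. Atf4, a transcription factor of the integrated stress response, had 6418, 7845 and 7834 normalized counts in DMSO, against 9651, 10560 and 9052 with SKI-II (log2 fold change 0.41, adjusted p = 0.0412, edgeR). That call was lost without DMSO 1, DMSO 2, SKI-II 1 or SKI-II 2, with adjusted p between 0.0722 and 0.149. The largest rises in the list were those of AP-1 subunits and of a stress factor. Fosl1 rose from 111 ± 36.9 to 588 ± 227 normalized counts (SD, n = 3 each; log2 fold change 2.40, adjusted p = 0.000479, edgeR), Fos from 84.2 ± 29.0 to 301 ± 51.8 (1.83, adjusted p = 0.000535) and Ddit3, which encodes CHOP, from 2484 ± 1174 to 7924 ± 2819 (1.67, adjusted p = 0.00552).

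The largest falls were those of Zfp36l1, which encodes an RNA-binding protein of the family that promotes decay of mRNAs with AU-rich elements, and of the NF-kB subunits Relb and Rel. Their log2 fold changes were -1.16, -0.81 and -0.69 (adjusted p of 0.00540, 0.0241 and 0.00366, edgeR). The call of Relb was lost without DMSO 3 (0.0743), SKI-II 1 (0.0525) or SKI-II 2 (0.0881). Of the other NF-kB subunits in the list, Nfkb2 fell by 0.50 (adjusted p = 0.0262), while Rela was at 0.30 (adjusted p = 0.104) and Nfkb1 at 0.15 (adjusted p = 0.297), not called, with all SKI-II libraries above all DMSO libraries for both. Nfkb2, Rela and Nfkb1 were chosen after their values were seen. Whether any of these factors acted on Ptgs2 in these cells was not tested.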
